A study of Mus musculus with 6 samples.

Results

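Mitochondrial ribosomal proteins are encoded in the nucleus, made in the cytosol and imported into mitochondria, where they assemble with the mitochondrial ribosomal RNAs into the mitoribosome. The mRNAs of 77 such genes were followed in mouse embryonic stem cells that lack Dgcr8. They are the entries of the RPKM table whose symbol is Mrpl or Mrps followed by a number, 48 Mrpl and 29 Mrps symbols among 13743 entries in all. All 77 passed the filter on low values (1 RPKM or more on average across all libraries), as did 11428 entries of the whole table. RPKM is a read count scaled to the length of the transcript and to the size of the library, so levels are per length.

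The cells were Dgcr8-/- ESCs of strain C57/129 in every group, so all groups share the loss of Dgcr8, a protein of the Microprocessor complex that cuts primary miRNA transcripts. Groups of 2 libraries each were transfected with a miR-294 mimic, with siMbd2 (an siRNA against Mbd2, which encodes a protein that binds methylated CpG sites) or as CTR, which the title of the deposited table calls mock and for which the labels name no agent. Mimics and siRNAs were used at 50 nM, added 16 h after plating, and the treatment label gives 48 h. The labels name only rep1 and rep2 within a group and do not say whether these were separate cultures, so p-values here reflect how far 2 libraries of a group lie apart, which may be technical.

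The mitoribosome translates the few proteins encoded by mitochondrial DNA, all of them subunits of the respiratory chain and the ATP synthase. Its large subunit joins amino acids and its small subunit reads the mRNA. Many of its proteins have relatives in bacterial ribosomes, and others were added in the mitochondrial lineage. miR-294 belongs to the miR-290 cluster, a family of miRNAs abundant in mouse embryonic stem cells, and an miRNA lowers mRNAs mainly through pairing of its seed (bases 2 to 8) with sites in their 3′ UTRs.

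The mature miRNA and the sites for it in members are shown because they are the letters through which the transfected mimic could pair with these mRNAs. The RefSeq sequence of mmu-miR-294-3p (GRCm38.p6, chr7:3220691-3220712, plus strand) is given with its seed in capitals, followed by 30 bases of the GENCODE M21 3′ UTR (GRCm38) around 5 of the sites, with the letters that match the seed, and an A across from base 1 where present, in capitals.
mmu-miR-294-3p: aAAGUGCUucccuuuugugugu
Mrpl19 (chr6:81957918-81957947, minus strand): aacaaccaaaaAGCACTTActctcccctta
Mrpl48 (chr7:100548582-100548611, minus strand): cctgtacgttcAGCACTTAggaggtggagg
Mrpl47 (chr3:32727230-32727259, minus strand): cagagtttaagAGCACTTgttgctcttcca
Mrpl30 (chr1:37898279-37898308, plus strand): agctcacagatGCACTTActaaggaaaccg
Mrpl32 (chr13:14610432-14610461, minus strand): ttcatagttagGCACTTAtttaaaatcagg
In all, 12 of the 77 members held 13 such sites in their longest annotated 3′ UTR. Whether the cells make those transcripts was not tested. Mrpl19 and Mrpl48 held the 8-base site AGCACTTA, and Mrpl19 a 7-base site besides. The 7-base site AGCACTT was in Mrpl9, Mrpl19, Mrpl47, Mrpl51, Mrps5, Mrps7, Mrps25 and Mrps35, and the 7-base site GCACTTA in Mrpl30, Mrpl32 and Mrps26. The median 3′ UTR of a member was 387 bases, against 1141 bases for all tested genes.

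Mbd2 itself had 7.33 and 6.34 RPKM in siMbd2 libraries, 11.27 and 12.32 RPKM in miR-294 libraries, and 26.76 and 27.86 RPKM in CTR libraries. Dgcr8 reads remained in all 6 libraries at 6.66 to 8.44 RPKM. All 8 embryonic stem cell markers were detected, with summed levels of 5454 and 5488 RPKM with miR-294, 6696 to 7050 RPKM with siMbd2 and 5829 to 6207 RPKM in CTR. With miR-294, Zfp42, Pou5f1 and Tdgf1 of these rose against CTR (log2 changes 0.65, 0.52 and 0.36) and Nanog, Sox2 and Dppa5a fell (-0.80, -0.51 and -0.36), and with siMbd2 Pou5f1, Esrrb and Dppa5a rose (0.33, 0.30 and 0.26) and Sox2 and Nanog fell (-0.42 and -0.33). Of other cell types, the 4 of 5 trophoblast markers in the table summed to 41.57 to 42.74 RPKM with miR-294, 48.75 to 50.16 RPKM with siMbd2 and 45.58 to 51.04 RPKM in CTR, where the median tested gene had 10.52 to 12.34 RPKM in a library. Among them Tfap2c had 9.08 and 8.6 RPKM with miR-294, 18.82 and 16.98 RPKM with siMbd2, and 28.4 and 26.17 RPKM in CTR, and fell with both treatments (log2 changes -1.52 and -0.58). Krt18, at 17.68 to 28.78 RPKM, rose with both (0.53 and 0.55), as did Hand1 at 1.37 to 4.59 RPKM (1.11 and 0.55), and Cdx2 had 0.2 to 0.79 RPKM. The 3 of 8 fibroblast and feeder markers in the table summed to 3.72 to 4.06 RPKM with miR-294, 1.26 to 1.45 RPKM with siMbd2 and 1.66 to 1.78 RPKM in CTR, and Thy1, the one tested, rose with miR-294 (0.83) and fell with siMbd2 (-0.30). The 5 primitive endoderm markers summed to 2.63 to 2.87 RPKM with miR-294, 2.5 to 2.91 RPKM with siMbd2 and 3.11 to 3.83 RPKM in CTR, with Sox17 listed at 0 in 1 siMbd2 library, and Gata4, the one tested, fell with both (-0.95 and -0.35). These marker calls are from the limma test described with the members' calls, and the part of the markers in the results was not tested. The depth of the libraries is unknown. The median absolute log2 difference between the 2 libraries of a group was 0.0572 with miR-294, 0.0551 with siMbd2 and 0.115 in CTR over the members, and 0.0626, 0.0602 and 0.136 over all tested genes.

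With miR-294, 63 of the 77 members rose against CTR, 2 fell and 12 were not called, whereas 27.7% of all tested genes rose and 36.8% fell. The calls are from limma on log2(RPKM + 1) with Benjamini-Hochberg adjustment over all 11428 tested genes, at an adjusted p under 0.05. The median log2 change was 0.41 over the members and -0.08 over all tested genes. The change reached 1.5-fold in 20 members, against 9.54% of all tested genes, and in 89.6% of members both miR-294 libraries lay above both CTR libraries, against 35.0% of all tested genes. In bulk RNA, fewer cells of a type and less RNA per cell cannot be told apart. A fold on this scale understates the change of low genes. The members' RPKM summed to 3652 and 3653 with miR-294, against 2783 and 2581 in CTR, which was 0.741% and 0.748% of the summed RPKM of a library with miR-294, against 0.618% and 0.601% in CTR.

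The rise ran through both subunits. Of the 30 large-subunit members with bacterial relatives, 26 rose (median log2 change 0.47), and of the 20 that are specific to mitochondria 17 rose (0.38). Of the 16 small-subunit members with bacterial relatives, 12 rose and 1 fell (0.40), and of the 10 specific to mitochondria 8 rose (0.44). In the lists of 30, 20 and 10 limma called 0 members lower, and 0 were lower at an unadjusted p under 0.05. The ratio of summed large-subunit to summed small-subunit RPKM was 2.07 and 2.10 with miR-294, against 2.02 and 1.97 in CTR.

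The largest rise was that of Mrpl20, a large-subunit protein with a bacterial relative. Mrpl20 (chr4:155802878-155809975, plus strand) had 88.73 and 85.73 RPKM with miR-294, 68.96 and 65.75 RPKM with siMbd2, and 31.84 and 36.92 RPKM in CTR. The 3 groups did not overlap. Its mean with miR-294 was 2.54 times that of CTR, and its log2 change was 1.32 (SE 0.076, limma adjusted p = 4.21e-06).

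Mrpl11, which forms part of the stalk base where translation factors bind in bacterial ribosomes, had 18.58 and 19.75 RPKM with miR-294, against 8.05 and 8.07 RPKM in CTR. Its log2 change was 1.15 (SE 0.071, limma adjusted p = 5.56e-06). Mrpl12, a stalk protein that also binds the mitochondrial RNA polymerase in human cells, had 69.6 and 65.2 RPKM with miR-294, against 37.33 and 29.49 RPKM in CTR. Its log2 change was 0.9998 (SE 0.099, limma adjusted p = 5.04e-05). For both genes the lower miR-294 library lay above the higher CTR library by more than the spread within either group.

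Mrps11 rose the most among small-subunit members, with 25.72 and 23.99 RPKM with miR-294, against 14.03 and 12.07 RPKM in CTR, a log2 change of 0.88 (SE 0.083, limma adjusted p = 3.76e-05). Mrps21, another small-subunit protein with a bacterial relative, had 64.59 and 60.52 RPKM with miR-294, against 33.49 and 35.25 RPKM in CTR, a log2 change of 0.85 (SE 0.061). Mrpl24 of the large subunit had 96.25 and 93.15 RPKM with miR-294, against 56.16 and 47.56 RPKM in CTR, a log2 change of 0.86 (SE 0.080). None of these groups overlapped. Mrpl34, Mrpl18, Mrpl47 and Mrpl42 followed with log2 changes of 0.84, 0.81, 0.77 and 0.75.

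The members that fell were Mrps36 and Mrps2. Mrps36 (chr13:100735955-100744659, minus strand) was named as a small-subunit protein and is now placed in the 2-oxoglutarate dehydrogenase complex of the citric acid cycle. It had 23.08 and 21.43 RPKM with miR-294, against 32.72 and 30.55 RPKM in CTR, a log2 change of -0.49 (SE 0.10, limma adjusted p = 0.0028). The annotation lists 3 named pseudogenes of Mrps36, and whether reads were split between it and them was not checked. In all, 3 members have a named pseudogene. Mrps2, a small-subunit protein with a bacterial relative, had 38.53 and 37.98 RPKM with miR-294, against 43.28 and 45.91 RPKM in CTR, a log2 change of -0.22 (SE 0.059, limma adjusted p = 0.0111). Mrps2 was no longer called under median-of-ratios scaling (log2 change -0.15, limma adjusted p = 0.0703) or without miR-294 replicate 1 or 2 (limma adjusted p = 0.062 and 0.083).

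The 12 members with no call were Mrpl2, Mrpl14, Mrpl30, Mrpl32, Mrpl38, Mrpl41, Mrpl57, Mrps6, Mrps15, Mrps22, Mrps28 and Mrps35, and their log2 changes ran from -0.09 to 0.27. Mrpl32, whose precursor is cut by the m-AAA protease in mitochondria, had 35.93 and 38.33 RPKM with miR-294, against 38.49 and 40.56 RPKM in CTR (log2 change -0.09, SE 0.062, limma adjusted p = 0.24). Mrpl41 had 18.98 and 18.4 RPKM with miR-294, against 19.38 and 17.87 RPKM in CTR, and these ranges overlapped. Mrpl36, one of the smallest proteins of the large subunit and one with a bacterial relative, had 31.2 and 32.9 RPKM with miR-294, 29.37 and 25.86 RPKM with siMbd2, and 21.58 and 21.18 RPKM in CTR. The 3 groups did not overlap, and it rose with both treatments (log2 changes 0.56 and 0.35, limma adjusted p = 0.000252 and 0.0088). Its call with siMbd2 was lost without siMbd2 replicate 1 (log2 change 0.26, limma adjusted p = 0.0913). Mrps12, at the decoding centre, rose with a log2 change of 0.46 (limma adjusted p = 0.000373), and Mrps16 with 0.22 (limma adjusted p = 0.0239). Mrps16 lost its call under quantile normalization (log2 change 0.06, limma adjusted p = 0.404) and without miR-294 replicate 1 or 2 (limma adjusted p = 0.0641 and 0.147).

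**Figure D1:**
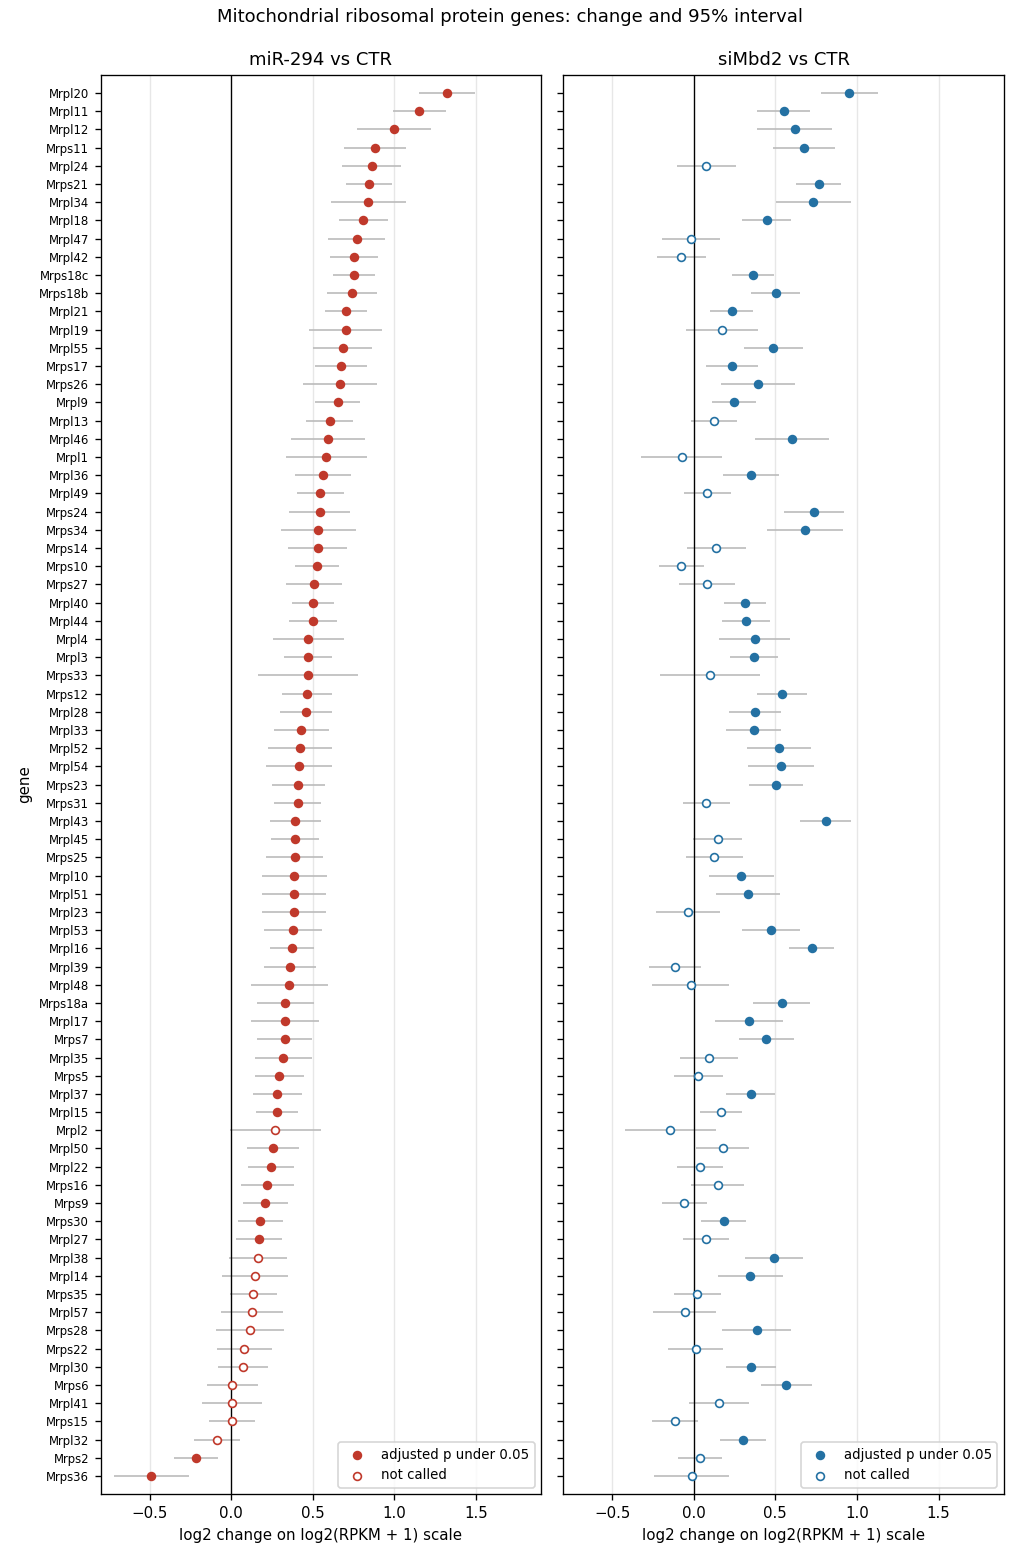
Log2 change of each of the 77 members on the log2(RPKM + 1) scale (horizontal axis), with its 95% interval from limma, for miR-294 against CTR (left panel) and siMbd2 against CTR (right panel). Genes run down the page from the highest to the lowest change with miR-294, and filled points are called: 63 higher and 2 lower with miR-294, and 44 higher and 0 lower with siMbd2. Both panels share the CTR libraries.

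The members were divided by whether their longest annotated 3′ UTR held a miR-294 site, and the difference between the 2 sets was not tested. Of the 12 with a site, 9 rose and 0 fell (none was lower at an unadjusted p under 0.05 either), with a median log2 change of 0.37. Of the 65 without, 54 rose and 2 fell, with a median of 0.42. Over all tested genes, 11.7% of the 411 with the 8-base site rose and 61.1% fell (median log2 change -0.37), 16.5% of the 1579 with AGCACTT rose and 49.0% fell (median -0.21), 18.8% of the 372 with GCACTTA rose and 48.1% fell (median -0.22), and 30.7% of the 8876 with no site rose and 33.4% fell (median -0.03). Mrpl19, which held an 8-base and a 7-base site, had 23.12 and 26.66 RPKM with miR-294, against 16.13 and 13.73 RPKM in CTR, a log2 change of 0.70 (SE 0.097, limma adjusted p = 0.000299). Mrpl48 had 55.81 and 55.63 RPKM with miR-294, against 48.08 and 38.98 RPKM in CTR, a log2 change of 0.36 (SE 0.10, limma adjusted p = 0.0149). That call was lost without CTR replicate 2 (log2 change 0.21, limma adjusted p = 0.052) and without miR-294 replicate 1 or 2 (limma adjusted p = 0.063 and 0.06). Mrpl47 held a 7-base site and was among the 10 largest rises. Of the 3 members with the site GCACTTA, Mrps26 rose (log2 change 0.67, limma adjusted p = 0.000469), and Mrpl30 (0.07) and Mrpl32 (-0.09) were not called.

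With siMbd2, 44 of the 77 members rose against CTR and limma called 0 lower, whereas 19.5% of all tested genes rose and 14.9% fell. At an unadjusted p under 0.05, 46 members were higher and 0 lower. The median log2 change was 0.30 over the members and 0.02 over all tested genes. The change reached 1.5-fold in 10 members, against 3.25% of all tested genes, and in 74.0% of members both siMbd2 libraries lay above both CTR libraries, against 37.0% of all tested genes. The members' RPKM summed to 3314 and 3308 with siMbd2, against 2783 and 2581 in CTR, or 0.705% and 0.712% of a library's summed RPKM with siMbd2, against 0.618% and 0.601% in CTR. Without siMbd2 replicate 2, fewer members and fewer of all tested genes were called higher. The median log2 change was then 0.29 over the members and 0.03 over all tested genes.

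By subunit and origin, 19 of the 30 and 12 of the 20 large-subunit members rose, and 9 of the 16 and 4 of the 10 small-subunit members. Mrpl20 again had the largest change: the per-library values above gave a mean 1.96 times that of CTR and a log2 change of 0.95 (SE 0.076, limma adjusted p = 0.000242). Mrpl43, a large-subunit protein specific to mitochondria, had 42.38 and 43.2 RPKM with siMbd2, against 25.21 and 22.88 RPKM in CTR, a log2 change of 0.81 (SE 0.068, limma adjusted p = 0.000268). Mrps21 had 59.73 and 58.51 RPKM with siMbd2, against 33.49 and 35.25 RPKM in CTR, a log2 change of 0.77 (limma adjusted p = 0.000242). In these genes both siMbd2 libraries lay above both CTR libraries.

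Mrps24 had 64.47 and 60.68 RPKM with siMbd2, against 39.66 and 34.63 RPKM in CTR, a log2 change of 0.74 (SE 0.081). Mrpl34 had 44.57 and 45.03 RPKM with siMbd2, against 30 and 23.49 RPKM in CTR, a log2 change of 0.73 (SE 0.10). Mrpl16 had 36.22 and 36.55 RPKM with siMbd2, against 21.74 and 21.58 RPKM in CTR, a log2 change of 0.72 (SE 0.060). All 3 have bacterial relatives, Mrps24 in the small subunit and the others in the large one, and their siMbd2 and CTR libraries did not overlap.

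Both treatments were set against the same CTR libraries, so the calls against CTR are not independent of each other and their overlap is not given. The contrast of miR-294 against siMbd2 tests the difference itself.

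Set directly against siMbd2, 35 members were higher with miR-294, 10 were lower and 32 were not called, whereas 21.9% of all tested genes were higher and 35.5% lower. The median log2 change was 0.12 over the members and -0.08 over all tested genes, and 6 members reached a 1.5-fold rise, against 5.15% of all tested genes. In 67.5% of members both miR-294 libraries lay above both siMbd2 libraries, against 34.5% of all tested genes. Of the large-subunit members, 16 of 30 with bacterial relatives were higher and 3 lower, and 7 of 20 specific to mitochondria were higher and 3 lower. Of the small-subunit members, 6 of 16 were higher and 3 lower, and 6 of 10 were higher and 0 lower (0 at an unadjusted p under 0.05). With a miR-294 or siMbd2 library left out, fewer members and fewer of all tested genes were called in either direction. The median log2 change in these fits was 0.12 to 0.17 over the members and -0.09 to -0.07 over all tested genes.

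Mrpl42, Mrpl47 and Mrpl24 were high in the miR-294 libraries alone. Mrpl42, a large-subunit protein specific to mitochondria, had 85.67 and 87.3 RPKM with miR-294, 46.14 and 50.47 RPKM with siMbd2, and 52.56 and 49.29 RPKM in CTR. The siMbd2 and CTR libraries overlapped, and both miR-294 libraries lay far above them. Its log2 change of miR-294 against siMbd2 was 0.83 (SE 0.065, limma adjusted p = 2.56e-05). Mrpl47 had 27.25 and 27.55 RPKM with miR-294, 15.77 and 15.15 RPKM with siMbd2, and 14.68 and 16.69 RPKM in CTR, a log2 change against siMbd2 of 0.79 (SE 0.077). Mrpl24 had 53.43 and 55.7 RPKM with siMbd2, which overlapped CTR, and its log2 change of miR-294 against siMbd2 was 0.78 (SE 0.080). Mrpl1, which binds near the exit site of tRNA in bacteria, Mrpl11 and Mrps10 followed with 0.66, 0.60 and 0.60.

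Others were higher with siMbd2 than with miR-294. Mrps6, a small-subunit protein with a bacterial relative, had 20.65 and 19.92 RPKM with miR-294, 29.05 and 31.77 RPKM with siMbd2, and 20.42 and 19.97 RPKM in CTR. The miR-294 and CTR libraries overlapped and both siMbd2 libraries stood above them. Its log2 change of miR-294 against siMbd2 was -0.56 (SE 0.069, limma adjusted p = 0.000225), and that of siMbd2 against CTR 0.57 (limma adjusted p = 0.000957). GENCODE places exons of other coding genes over Mrps6 on the same strand, among them Slc5a3, so its reads may be shared.

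Mrpl43 had 32.6 and 31.12 RPKM with miR-294, between its siMbd2 and CTR libraries, and its log2 change of miR-294 against siMbd2 was -0.41 (SE 0.068, limma adjusted p = 0.00101). Mrpl32 had 49.45 and 48.45 RPKM with siMbd2 and a log2 change of miR-294 against siMbd2 of -0.39 (SE 0.062, limma adjusted p = 0.000878). Mrps36 had 34.96 and 28.04 RPKM with siMbd2, which spanned both CTR values, and a log2 change of miR-294 against siMbd2 of -0.48 (SE 0.10, limma adjusted p = 0.00395). Mrpl16, Mrpl38, Mrpl30, Mrps28, Mrps2 and Mrps18a were also lower with miR-294 than with siMbd2, with log2 changes of -0.35, -0.33, -0.28, -0.27, -0.25 and -0.21. Without 1 library, calls were lost for Mrpl30 (siMbd2 replicate 1), Mrpl38 and Mrps2 (miR-294 replicate 2 or siMbd2 replicate 2), at limma adjusted p from 0.0533 to 0.0819. Mrps18a was not called under 6 of the 14 alternatives, where its value ran from -0.22 to -0.12. Mrps28 was not called under every one of the 14 alternatives either.

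**Figure D2:**
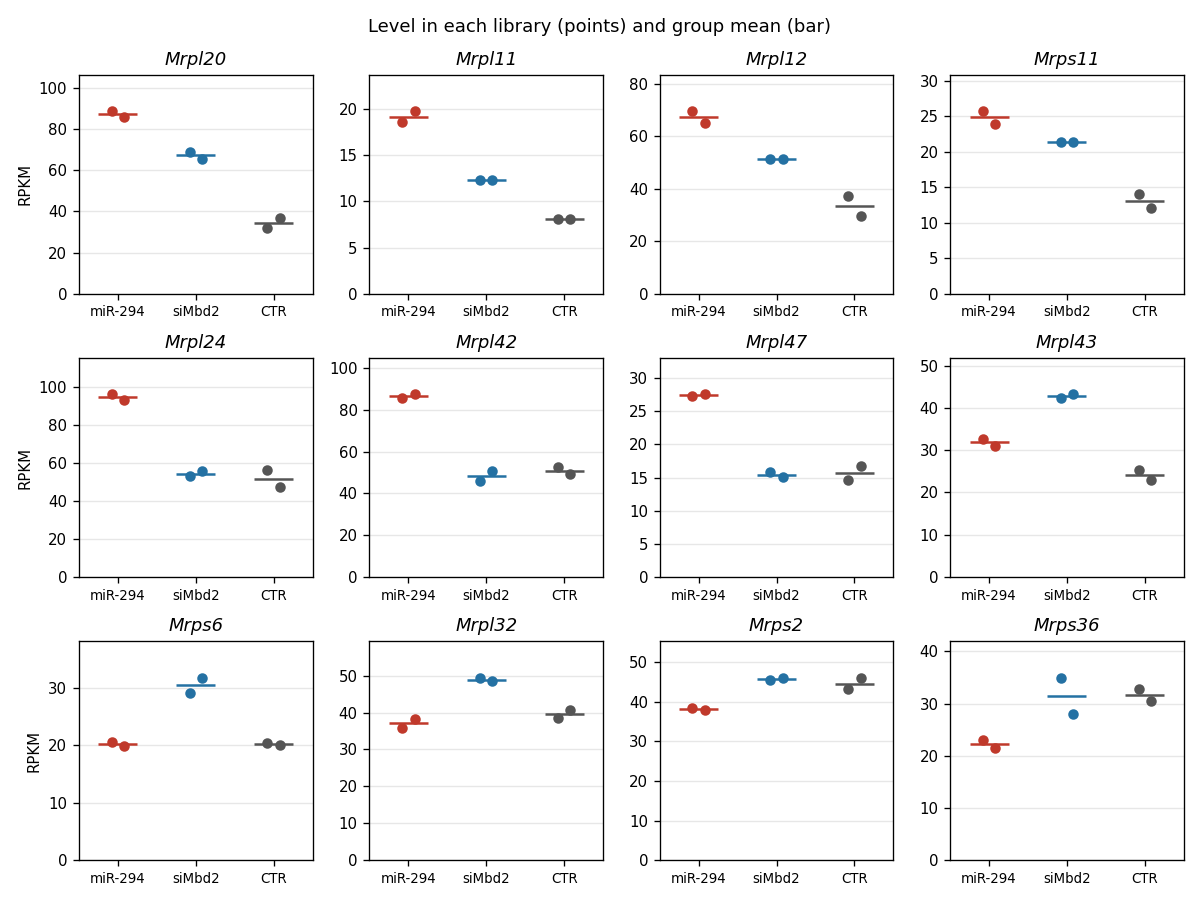
RPKM (vertical axis, from 0) of 12 members in each library, as points, with the mean of the 2 libraries of a group as a bar, for miR-294, siMbd2 and CTR from left to right. Mrpl20 to Mrps11 are highest with miR-294 and lowest in CTR, Mrpl24, Mrpl42 and Mrpl47 stand above the other groups with miR-294, Mrpl43, Mrps6 and Mrpl32 with siMbd2, and Mrps2 and Mrps36 are lowest with miR-294.

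**Figure D3:**
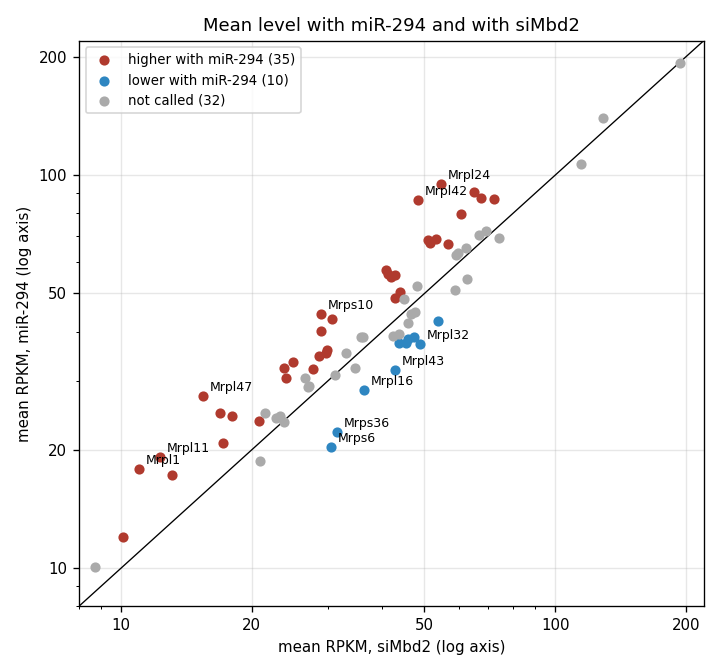
Mean RPKM of each member with miR-294 (vertical axis) against its mean with siMbd2 (horizontal axis), both on log axes, with the line of equal levels and one point per gene. Of the 77 points, 35 are called higher and 10 lower with miR-294, and Mrpl42, Mrpl24 and Mrpl47 lie above the line while Mrps6, Mrps36 and Mrpl43 lie below it.

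The Mrps18 genes are 3 relatives of a bacterial small-subunit protein, and by structure the products of Mrps18b and Mrps18c sit in the small subunit and that of Mrps18a in the large one. Despite this relation, the counts above place Mrps18a among the large-subunit members specific to mitochondria. Mrps18c had 79.5 and 79.8 RPKM with miR-294, 59.72 and 61.47 RPKM with siMbd2, and 45.76 and 48.03 RPKM in CTR. Mrps18b had 66.26 and 67.44 RPKM with miR-294, 53.99 and 59.22 RPKM with siMbd2, and 41.05 and 38.31 RPKM in CTR. Mrps18a had 37.28 and 37.69 RPKM with miR-294, 40.93 and 46.22 RPKM with siMbd2, and 30.97 and 28.31 RPKM in CTR. All 3 rose with both treatments, and Mrps18c and Mrps18b were highest with miR-294 whereas Mrps18a was highest with siMbd2. The log2 change of miR-294 against siMbd2 was 0.39 for Mrps18c, 0.24 for Mrps18b (limma adjusted p = 0.0148, lost without miR-294 replicate 1 or 2 or siMbd2 replicate 1 at 0.069, 0.096 and 0.15) and -0.21 for Mrps18a (limma adjusted p = 0.0429). Mrps30, also a large-subunit protein by structure, had 30.76 and 31.28 RPKM with miR-294, 30.79 and 31.43 RPKM with siMbd2, and 27.9 and 26.68 RPKM in CTR, and its log2 changes against CTR of 0.18 and 0.18 were lost under 5 and 7 of the 14 alternatives, among them the omission of either library of the treatment (limma adjusted p = 0.11 and 0.155 with miR-294, and 0.169 and 0.25 with siMbd2).

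Levels differed far more between members than between groups. The mean RPKM over the 6 libraries ran from 9.31 for Mrpl57 to 180.5 for Mrpl17, a ratio of 19.4, with a median of 36.9. Mrpl17 had 183.24 and 203.21 RPKM with miR-294, 198.7 and 189.62 RPKM with siMbd2, and 168.35 and 139.88 RPKM in CTR. Its log2 change of miR-294 against CTR, 0.33 (limma adjusted p = 0.012), was 0.07 under quantile normalization (limma adjusted p = 0.476) and 0.25 without miR-294 replicate 2 (limma adjusted p = 0.099). After Mrpl17 came Mrpl15 (127.5 RPKM), Mrpl52 (100.3 RPKM), Mrps5 (76.75 RPKM) and Mrpl21 (70.27 RPKM), and at the low end stood Mrpl35 (10.51 RPKM), Mrpl11 (13.17 RPKM), Mrpl1 (13.52 RPKM) and Mrps33 (14.25 RPKM). Mrpl21 rose with miR-294 with a log2 change of 0.70 (limma adjusted p = 1.75e-05). Mrpl15 and Mrps5 were called higher with miR-294 at 0.28 and 0.29, and both calls were lost under quantile normalization (log2 changes 0.08 and 0.12, limma adjusted p = 0.223 and 0.143).

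The members are short and abundant, and both properties moved with the change over all tested genes. The median member transcript was 1316 bases long, against 3077 bases for all tested genes. In the shortest quintile of tested genes by transcript length, 44.3% rose with miR-294 and 31.1% with siMbd2, and in the longest quintile 14.2% and 10.9%. That shortest quintile held 49 members, of which 40 rose with miR-294 and 34 with siMbd2. In the second quintile 7 of 9 members rose with miR-294, against 32.1% of its genes, and 2 of 9 with siMbd2, against 22.2%. In the third 6 and 4 of 8 members rose, against 26% and 18.7%, in the fourth 8 and 3 of 9, against 21.7% and 15.2%, and in the longest 2 and 1 of 2. With siMbd2 the members' share was thus near that of all genes in the second quintile. In the top quintile by mean RPKM, 50.6% of genes rose with miR-294 and 30.9% with siMbd2, and of the 42 members there 33 and 28 rose. Among the 30 members of the quintile below, 26 rose with miR-294 and 15 with siMbd2, against 30.9% and 24.4% of its genes. In the middle quintile 4 and 1 of 5 members rose, against 20.2% and 17.0%, and the lower quintiles held none. In the direct contrast, 17 of the 42 members in the top quintile by level were higher with miR-294, near the 39.9% of its genes. In the quintile below it was 14 of 30, against 20.9%, and in the middle one 4 of 5, against 15.2%. By length it was 20 of 49 in the shortest quintile, against 32.7%. In the next 3 it was 4 of 9, 4 of 8 and 6 of 9, against 24.8%, 21.5% and 17.0%. The part of length and level in the members' changes was not tested.

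**Figure D4:**
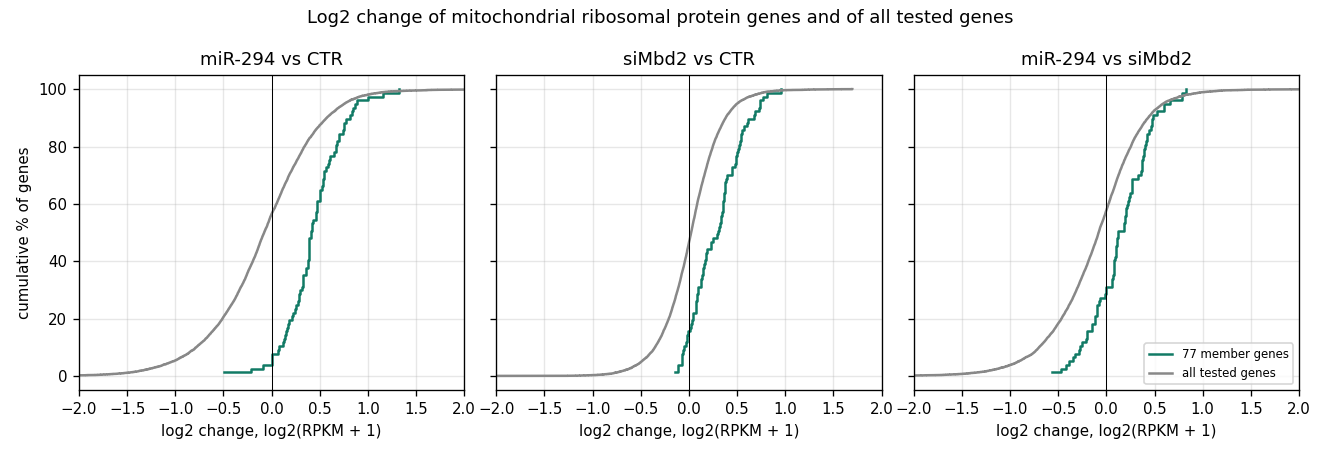
Cumulative share of genes (vertical axis, %) by log2 change on the log2(RPKM + 1) scale (horizontal axis) for the 77 members and for all 11428 tested genes, in the 3 contrasts. The members' curve lies to the right of the other, with medians of 0.41 against -0.08 for miR-294 vs CTR, 0.30 against 0.02 for siMbd2 vs CTR and 0.12 against -0.08 for miR-294 vs siMbd2. A few genes beyond a log2 change of 2 in size are not drawn.

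Promoters were read for the members because so many of them moved together. RefSeq (GRCm38.p6) gave a promoter window, 250 bases before to 50 bases after the start, for 68 of the 77. Only the first window listed for each gene was read, so any other annotated starts were not searched. Searched on both strands, the ETS motif CCGGAAG was in 35.29% of the 68, against 19.58% of 8657 tested genes and 9.12% of all 27025 windows. The YY1 motif ATGGCGG was in 19.12% of members, against 8.95% of tested genes and 4.19% of all windows, and the NRF1 motif GCGCATGC in 11.76%, against 6.13% and 2.8%. The E-box CACGTG was in 7.35% of members, against 10.66% of tested genes and 7.24% of all windows. Of the 24 members with the ETS motif, 22 rose with miR-294 and 17 with siMbd2, and of the 44 without it 35 and 22 rose. Of the 13 with the YY1 motif 12 rose with miR-294 and 6 with siMbd2, and Mrps2 fell with miR-294. Of the 55 without it 45 and 33 rose, and the median log2 change with miR-294 was 0.29 with the motif and 0.46 without. Of the 8 with the NRF1 motif 7 and 6 rose, and of the 60 without it 50 and 33. Of the 5 with the E-box 4 and 4 rose, and of the 63 without it 53 and 35. None of these differences was tested. Of all tested genes, with or without a motif, 27.7% rose with miR-294 and 19.5% with siMbd2. The shares among all tested genes that hold each motif were not computed.

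Mrps2, which also fell with miR-294, holds the YY1 motif and is not shown. Promoters of 4 members are shown with these motifs in capitals: Mrpl20 and Mrps11, which had the largest rises of their subunits with miR-294, Mrps18b, which holds more than 1 kind of motif, and Mrps36, which fell and has none.
Mrpl20 (chr4:155802628-155802927, plus strand): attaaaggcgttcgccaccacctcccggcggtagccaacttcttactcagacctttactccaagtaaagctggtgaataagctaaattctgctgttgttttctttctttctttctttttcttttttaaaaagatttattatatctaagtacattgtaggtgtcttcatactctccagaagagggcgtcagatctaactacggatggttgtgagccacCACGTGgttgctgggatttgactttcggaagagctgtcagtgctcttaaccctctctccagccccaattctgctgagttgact
Mrps11 (chr7:78782881-78783180, plus strand): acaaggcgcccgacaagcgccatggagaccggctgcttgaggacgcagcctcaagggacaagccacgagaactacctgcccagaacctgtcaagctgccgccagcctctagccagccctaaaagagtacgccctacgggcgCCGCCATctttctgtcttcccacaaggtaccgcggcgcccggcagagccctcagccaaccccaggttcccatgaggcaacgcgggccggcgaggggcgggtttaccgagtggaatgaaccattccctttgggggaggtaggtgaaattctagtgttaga
Mrps18b (chr17:35916391-35916690, minus strand): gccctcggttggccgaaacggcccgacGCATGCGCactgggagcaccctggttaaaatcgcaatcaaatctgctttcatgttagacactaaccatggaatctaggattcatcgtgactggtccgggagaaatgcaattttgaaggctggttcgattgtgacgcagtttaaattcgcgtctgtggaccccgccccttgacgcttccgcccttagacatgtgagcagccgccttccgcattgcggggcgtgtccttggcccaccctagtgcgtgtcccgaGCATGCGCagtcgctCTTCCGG
Mrps36 (chr13:100744610-100744909, minus strand): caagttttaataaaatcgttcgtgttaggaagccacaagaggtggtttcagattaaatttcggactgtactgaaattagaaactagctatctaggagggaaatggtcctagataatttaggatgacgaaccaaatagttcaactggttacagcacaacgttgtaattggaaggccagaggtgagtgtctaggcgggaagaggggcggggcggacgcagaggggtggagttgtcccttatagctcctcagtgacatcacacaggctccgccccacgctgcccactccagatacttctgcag
The Mrpl20 window holds an E-box that begins 33 bases before the start, and the Mrps11 window a YY1 motif on the reverse strand that begins 109 bases before it. The Mrps18b window holds 2 NRF1 motifs and an ETS motif. A match describes these letters and says nothing about binding.

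A coding gene on the other strand starts within 1000 bases upstream of 18 members, 23.38% of them, against 10.7% of 11292 tested coding genes. Mrpl46 and Mrps11 lie head to head on chromosome 7 and their annotated exons overlap. Mrpl46 had 22.66 and 24.4 RPKM with miR-294, 23.44 and 23.95 RPKM with siMbd2, and 17.06 and 13.64 RPKM in CTR, and like Mrps11 it rose with both treatments (log2 changes 0.59 and 0.60). Exons of 20 members overlap a coding gene on the opposite strand, among them Mrpl24, Mrpl47 and Mrpl43, and 4 overlap one on the same strand. Of the 20, 19 rose with miR-294 and 12 with siMbd2, and of the other 57, 44 and 32. Of all tested genes 27.7% and 19.5% rose. Whether the strand was used in the authors' counting is not stated in the labels, so the values of these genes may include reads of their neighbours.

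Some mitoribosomal proteins carry other names. Of 6 such genes in the table, 3 rose with miR-294, against 27.7% of all tested genes, and 4 with siMbd2, against 19.5%. Ptcd3, a small-subunit protein that binds RNA, had 50.88 and 50.24 RPKM with miR-294, 32.07 and 32.45 RPKM with siMbd2, and 28.04 and 32.89 RPKM in CTR (log2 change of miR-294 against CTR 0.72, limma adjusted p = 8.19e-05). Dap3, a GTP-binding protein of the small subunit, had 73.76 to 75.78 RPKM with miR-294, 74.23 to 76.24 RPKM with siMbd2 and 69.82 to 74.0 RPKM in CTR and was called in neither (log2 changes 0.06 and 0.06).

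For the lists of genes around the mitoribosome, the shares of all tested genes were 27.7% higher and 36.8% lower with miR-294, and 19.5% higher and 14.9% lower with siMbd2. Of 25 genes for its assembly and rRNA modification, 13 rose with miR-294 and limma called 0 lower (1 at an unadjusted p under 0.05), and 10 rose and 2 fell with siMbd2. Mtg1, which fell with siMbd2, was not called with only the 2 groups compared in the fit (log2 change -0.24, limma adjusted p = 0.0784). Rbfa, a maturation factor of the small subunit, had 29.81 and 29.17 RPKM with miR-294, 26.08 and 25.13 RPKM with siMbd2, and 18.95 and 17.01 RPKM in CTR, with log2 changes of 0.69 and 0.49. Noa1, a GTPase needed for the small subunit, had 9.96 and 10.94 RPKM with siMbd2, against 5.82 and 6.74 RPKM in CTR (log2 change 0.65, limma adjusted p = 0.0016). Tfb1m, which methylates the small-subunit rRNA, had 6.07 and 6.2 RPKM with siMbd2, against 9.84 and 9.77 RPKM in CTR (log2 change -0.60, limma adjusted p = 0.00141). Of 12 mitochondrial translation factors, 5 rose and 1 fell with miR-294, and 4 rose and 3 fell with siMbd2. Of those 3, Guf1 lost its call when either siMbd2 library was left out, and Mtif2 without siMbd2 replicate 2. Tufm, the elongation factor that brings tRNA to the ribosome, was called higher with both (log2 changes 0.22 and 0.32), but its call with miR-294 was lost under 8 of the 14 alternatives (limma adjusted p from 0.0596 to 0.179, log2 change 0.11 without CTR replicate 2), and its call with siMbd2 without either siMbd2 library (limma adjusted p = 0.0872 and 0.09). Mtrf1, which is related to release factors, had 6.07 and 6.05 RPKM with miR-294, against 3.78 and 3.77 RPKM in CTR (log2 change 0.56, limma adjusted p = 0.000502). Mtrf1l, a release factor, had 2.54 and 2.88 RPKM with miR-294, against 5.07 and 4.67 RPKM in CTR (log2 change -0.66, limma adjusted p = 0.000921). Of 17 mitochondrial aminoacyl-tRNA synthetases, 9 rose and 2 fell with miR-294, and 3 rose and 1 fell with siMbd2, where the 17.6% higher is near the share of all tested genes. Pars2 and Wars2, which fell with miR-294, were not called under quantile normalization (log2 changes -0.07 and -0.11, limma adjusted p = 0.524 and 0.368). With siMbd2, Rars2, which fell, and Ears2, which rose, lost their calls when either siMbd2 library was left out. Lars2, which charges the leucine tRNAs, had 52.05 and 60.64 RPKM with miR-294, 34.89 and 31.46 RPKM with siMbd2, and 26.63 and 23.34 RPKM in CTR.

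Of 22 genes for mitochondrial transcription, RNA processing and decay, 14 rose and 2 fell with miR-294 (63.6% and 9.09%, against 27.7% and 36.8% of all tested genes), and 7 rose and 2 fell with siMbd2 (31.8% and 9.09%, against 19.5% and 14.9%). Fastkd5, an RNA-binding protein of the mitochondrial RNA granule, had 9.39 and 9.03 RPKM with miR-294, 5.51 and 5.79 RPKM with siMbd2, and 3.21 and 3.75 RPKM in CTR, with log2 changes of 1.19 (limma adjusted p = 1.41e-05) and 0.57 (limma adjusted p = 0.00264). The entry 1110008L16Rik had 19.68 and 19.66 RPKM with miR-294, 28.83 and 25.25 RPKM with siMbd2, and 38.65 and 35.33 RPKM in CTR. It fell with both treatments (log2 changes -0.88 and -0.44), and its call with siMbd2 was lost without siMbd2 replicate 2 (limma adjusted p = 0.0562). Tfam, which packages mitochondrial DNA and helps to start its transcription, had 48.45 and 45.53 RPKM with miR-294, 31.29 and 32.54 RPKM with siMbd2, and 31.62 and 29.16 RPKM in CTR (log2 change of miR-294 against CTR 0.61, limma adjusted p = 8.53e-05). Polrmt, the mitochondrial RNA polymerase, had 12.99 and 12.04 RPKM with miR-294, 10.67 and 11.86 RPKM with siMbd2, and 11.84 and 8.69 RPKM in CTR, and was not called in any contrast. Its log2 change of 0.28 with miR-294 was called under median-of-ratios scaling (0.34, limma adjusted p = 0.0286), under quantile normalization (0.44, limma adjusted p = 0.0117) and without CTR replicate 1 (0.48, limma adjusted p = 0.00211), and that of 0.14 with siMbd2 was called without CTR replicate 1 (0.34, limma adjusted p = 0.017). Of 10 transcription factors known to act on nuclear genes for mitochondria, 6 were called higher with miR-294, against 27.7% of all tested genes, and 2 with siMbd2, a share close to the 19.5% of all tested genes, and limma called 0 lower in either (0 and 1 at an unadjusted p under 0.05). Myc had 25.98 and 26.95 RPKM with miR-294, 5.71 and 6.91 RPKM with siMbd2, and 1.84 and 2.41 RPKM in CTR, with log2 changes against CTR of 3.14 (limma adjusted p = 1.14e-06) and 1.23 (limma adjusted p = 0.000395). Its part in the members' changes was not tested.

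The proteins that the mitoribosome makes are encoded by 13 mitochondrial genes, and with miR-294 limma called 7 of the 13 lower and 0 higher (0 at an unadjusted p under 0.05), with a median log2 change of -0.45. The 53.8% lower stand against 36.8% of all tested genes. With siMbd2 it called 0 in either direction (0 at an unadjusted p under 0.05). Their share of the summed RPKM was 2.53% and 2.68% with miR-294, 3.27% and 3.38% with siMbd2, and 3.03% and 4.13% in CTR, so the CTR libraries differed from each other more than the siMbd2 and miR-294 libraries did among themselves. mt-Co2, a subunit of cytochrome c oxidase, had 33.25 and 40.02 RPKM with miR-294, 57.07 and 64.93 RPKM with siMbd2, and 50.79 and 76.73 RPKM in CTR (log2 change of miR-294 against CTR -0.76, limma adjusted p = 0.00444). Both miR-294 libraries lay below all others.

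Among the nuclear genes of the respiratory chain and ATP synthase, 36 of 75 rose and 6 fell with miR-294, against 27.7% and 36.8% of all tested genes, and 21 rose and 5 fell with siMbd2, against 19.5% and 14.9%. Of 75 cytosolic ribosomal protein genes, 71 rose with miR-294 (median log2 change 0.43) and 33 with siMbd2 (0.18), and limma called 0 lower in either (0 at an unadjusted p under 0.05). With siMbd2, 57.1% of the mitochondrial ribosomal protein genes rose, against 44.0% of the cytosolic ones, and with miR-294 81.8% against 94.7%. The difference between these lists was not tested.

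**Figure D5:**
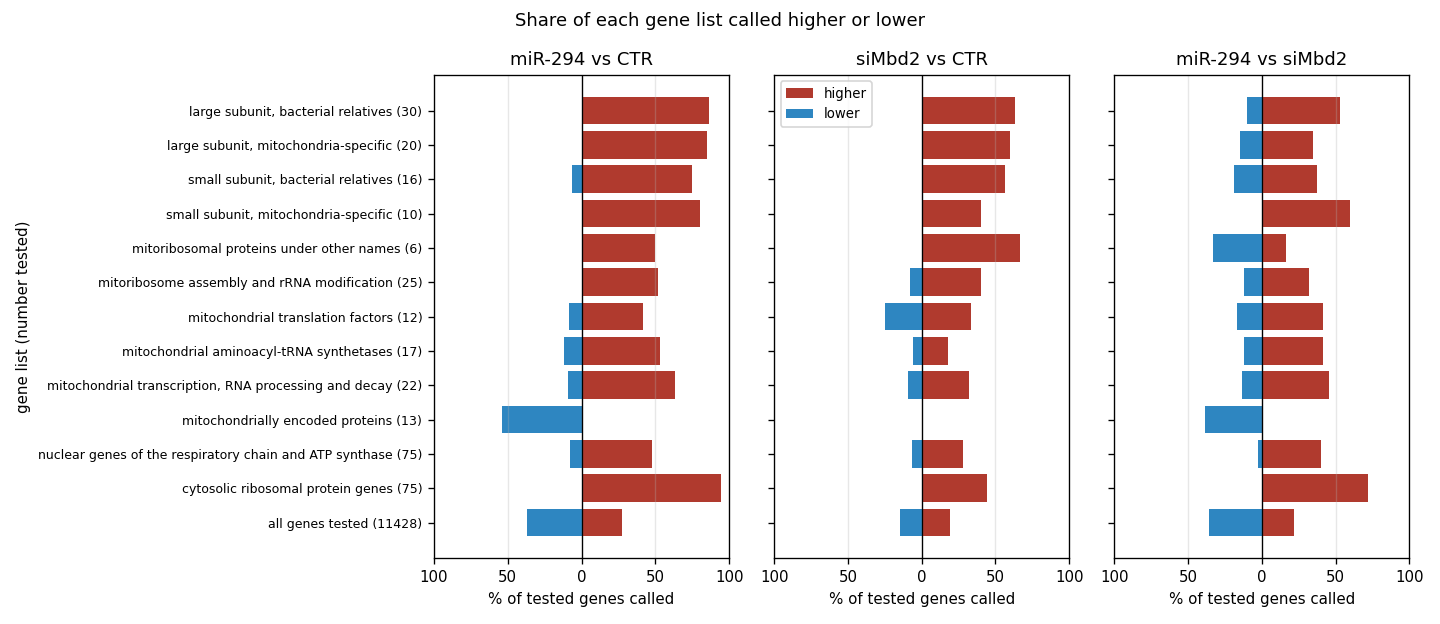
Share of the tested genes of each list that limma called higher (bars to the right of 0) or lower (bars to the left), in %, for the 3 contrasts, with the number tested beside each name. With miR-294 against CTR the 4 groups of mitoribosomal genes reach 75% to 86.7% higher, the cytosolic ribosomal protein genes 94.7%, and the mitochondrially encoded genes have bars on the lower side alone, at 53.8%.

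The calls were repeated under 14 alternatives, which were other settings or the omission of a library. With miR-294 against CTR, 51 of the 63 members that rose were called under every one, as was Mrps36 of those that fell. With siMbd2 against CTR 25 of the 44 were, and in the direct contrast 20 of the 35 higher and 5 of the 10 lower (Mrpl16, Mrpl32, Mrpl43, Mrps36 and Mrps6). No called member changed sign under any of them.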

How the data were processed

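The labels give total RNA and a paired-end Illumina protocol. The authors deposited RPKM values per gene and library, each described in the labels as an average over lanes, and linear ratios of the treated to the CTR mean. The submitters' processing notes name CASAVA 1.7, STAR 2.3.0, Cufflinks and the mm10 build. The ratios in the authors' deposited table were within 0.01 of ratios of mean RPKM for 77 of 77 members. RPKM is not a count and no depth could be read from it, so no counting interval is given. From these values log2(RPKM + 1) was computed for entries with a mean of at least 1 RPKM. In R 4.3.3, limma 3.58.1 fitted 1 model of 3 groups over 6 libraries, allowing the variance to follow mean level. The model had 3 residual and 5.38 prior degrees of freedom. The fit was first tried on simulated data with equal spread in all groups and few changed genes. These data differ in both respects, so that trial does not show how reliable the calls are. Tests are two-sided, adjusted by Benjamini-Hochberg over all tested genes.

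Coordinates, 3′ UTRs (the longest annotated of each coding gene) and overlaps come from GENCODE M21 (GRCm38), miRNA and promoter sequences from RefSeq (GRCm38.p6). The text names the 6 highest and lowest called changes per contrast, the 5 highest and lowest levels, members with a miR-294 site, 12 members chosen by role, and of other lists some of the genes with the extreme called changes and Tufm, Tfam, Dap3 and Polrmt. Members and lists were chosen with earlier results of these data known. Mrpl2, Mrpl14, Mrpl18, Mrpl46, Mrps15, Mrps22, Mrps28 and the markers of cell types are named outside that rule, after their values were seen. Alternatives were a pseudocount of 0.1, no filter, a minimum of 5 RPKM, median-of-ratios scaling, quantile normalization, no trend, 2-group fits, a replicate block and each library left out.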

Additional observations from a re-analysis of the deposited data

How the results depend on the processing

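The members called higher with miR-294 against CTR numbered 59 to 67 under the 8 alternative settings and 54 to 67 without each library in turn. The count lower was 1 under median-of-ratios scaling and 1 to 2 without a library. With siMbd2 against CTR, 41 to 45 members were higher under the settings and 28 to 50 without a library, and 2 were lower under quantile normalization and 0 to 1 without a library. In miR-294 against siMbd2, 22 to 40 were higher and 6 to 13 lower without a library. Under the 8 alternative settings, 31 to 44 were higher and 8 to 13 lower in that contrast. Of all tested genes, 25.5% to 32.2% were higher under these settings with miR-294 against CTR, and 15.5% to 22.7% with siMbd2 against CTR. In the direct contrast 21.2% to 28.8% were higher and 27.1% to 40.9% lower. With siMbd2 against CTR, the members' count and the share of all tested genes were both lowest without siMbd2 replicate 2. Both were highest without CTR replicate 1. The causes of these ranges were not tested, and leaving out a library also left fewer libraries in the fit. Quantile normalization moved the log2 changes of the tested genes by a median of 0.148 in each contrast with miR-294. The median log2 change over all tested genes moved from -0.08 to 0.02 against CTR and from -0.08 to 0.03 against siMbd2. Under quantile normalization the members' median with miR-294 against CTR was 0.39, against 0.02 for all tested genes. Replicate numbers 1 and 2 were not shown to pair the libraries: deviations of same-numbered libraries correlated at 0.119 (CTR and miR-294), 0.132 (CTR and siMbd2) and 0.0218 (miR-294 and siMbd2), and the labels name no shared source. A fit with the number as a block called 64 higher and 2 lower with miR-294, 45 and 0 with siMbd2, and 37 and 11 in the direct contrast. Values with no call that were near 0 changed sign. Under quantile normalization the log2 change was -0.116 for Dap3 (miR-294 vs CTR), -0.0337 for Dap3, -0.0105 for Mrpl24, -0.0509 for Mrps2, -0.0551 for Mrps35, -0.0707 for Mrps5 and -0.0166 for Tfam (siMbd2 vs CTR), -0.0229 for Mrpl15, -0.0101 for Mrpl51 and 0.0548 for Mrps30 (miR-294 vs siMbd2). Under median-of-ratios scaling the log2 change was 0.0713 for Dap3, 0.0723 for Mrpl17, 0.003 for Mrps12 and 0.0746 for Mrps30 (miR-294 vs siMbd2). Without each library in turn, values of miR-294 vs siMbd2 ran from -0.0281 to 0.0104 for Dap3, -0.0827 to 0.0658 for Mrpl17 and -0.0184 to 0.0104 for Mrps30. Without each library in turn, values of siMbd2 vs CTR ran from -0.24 to 0.0915 for Mrpl1, -0.0411 to 0.194 for Mrpl24, -0.104 to 0.0698 for Mrpl47, -0.166 to 0.13 for Mrpl48, -0.12 to 0.007 for Mrpl57, -0.0043 to 0.0789 for Mrps2, -0.119 to 0.314 for Mrps33, -0.0022 to 0.0441 for Mrps35, -0.168 to 0.141 for Mrps36, -0.0445 to 0.098 for Mrps5 and -0.0678 to 0.338 for Polrmt. Without each library in turn, values of miR-294 vs CTR ran from -0.0498 to 0.0612 for Mrpl41 and -0.0188 to 0.0307 for Mrps6. The depth is unknown, so what it limits could not be given.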
